A study of Mus musculus with 6 samples.

Results

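The genes described here are 10 amino acid transporters of the mouse, Slc3a2, Slc7a11, Slc7a5, Slc7a6, Slc7a3, Slc7a1, Slc1a4, Slc1a5, Slc38a2 and Slc6a9, out of 49584 gene identifiers in the deposited count table. They were taken as the rows whose Ensembl identifier carries those symbols in GENCODE vM21, and all 10 were found. The genes were chosen by name with their counts in SKO against wild type columns of these same libraries known, so their differences between genotypes are given as descriptions and carry no test. The groups compared were 3 libraries labelled Srp68 SKO and 3 labelled Wild type, all poly(A) RNA of leptotene and zygotene spermatocytes sorted from testes at postnatal day 12 and made into Smart-seq2 libraries, which copy full-length cDNA from few cells and amplify it by PCR. Srp68 encodes a protein of the signal recognition particle (SRP), which brings ribosomes to the endoplasmic reticulum while they make a secretory or membrane protein. The sources used here do not say how Srp68 was removed, what drove the deletion, how many cells made up a library or whether replicates came from separate animals. A p-value therefore covers the spread among these libraries alone, which may be technical.

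Amino acid transporters are membrane proteins that span the bilayer many times and move amino acids across it, some by exchanging one for another and some by coupling uptake to sodium. A subset works as a pair: the heavy chain encoded by Slc3a2, a glycoprotein with a single membrane span, carries a light chain of the SLC7 family to the cell surface, and the light chain does the transport. When amino acids run short or eIF2α is phosphorylated, mammalian cells translate the transcription factor ATF4, which acts with C/EBP partners on genes for amino acid uptake and synthesis through a short DNA element, the amino acid response element.

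Promoter sequences are shown for 3 of the 10 genes because they differ in whether the core of that element is present near the start of the gene. RefSeq windows on GRCm38.p6, of 250 bases before to 50 bases after a start, were at hand for 7 of the 10 genes, in 11 windows. The core was searched as TGATGNAA on both strands, and it was found in the windows of Slc7a11 and Slc1a4 and in no window of Slc3a2, Slc38a2, Slc7a1, Slc7a6 or Slc6a9. Windows are written 5′ to 3′ on the strand of the gene, with matches in capitals.
Slc7a11, chr3:50443564-50443863, minus strand: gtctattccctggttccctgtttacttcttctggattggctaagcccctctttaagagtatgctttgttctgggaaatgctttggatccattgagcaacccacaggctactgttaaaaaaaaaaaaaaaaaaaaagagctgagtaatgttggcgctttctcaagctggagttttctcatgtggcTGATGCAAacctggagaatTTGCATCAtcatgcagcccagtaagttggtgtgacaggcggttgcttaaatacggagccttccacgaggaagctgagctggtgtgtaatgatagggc
Slc1a4, chr11:20332664-20332963, minus strand: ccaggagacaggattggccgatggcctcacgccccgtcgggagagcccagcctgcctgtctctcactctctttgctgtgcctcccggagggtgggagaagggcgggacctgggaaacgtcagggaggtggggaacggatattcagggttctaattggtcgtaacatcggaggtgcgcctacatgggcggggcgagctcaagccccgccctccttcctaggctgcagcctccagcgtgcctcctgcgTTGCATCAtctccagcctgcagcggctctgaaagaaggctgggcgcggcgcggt
Slc38a2, chr15:96699679-96699978, minus strand: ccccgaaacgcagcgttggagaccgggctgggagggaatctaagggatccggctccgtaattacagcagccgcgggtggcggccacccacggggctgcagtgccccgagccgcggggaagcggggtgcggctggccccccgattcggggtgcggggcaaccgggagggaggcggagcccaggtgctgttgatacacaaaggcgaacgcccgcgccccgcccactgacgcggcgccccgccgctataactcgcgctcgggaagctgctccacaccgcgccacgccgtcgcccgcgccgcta

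The Slc7a11 window held the core as TGATGCAA in both orientations, with the forward match beginning 66 bases and the reverse match 47 bases before the start, both positions read along the printed strand. In the Slc1a4 window the same letters lay on the strand opposite to the printed one and began 4 bases before the start, so that the match runs across it. Of 27025 genes with a window, 4.51% had at least 1 match, and among their 32851 windows 3.97% held 1 or more and 23 windows (0.07%) held at least 2. A second core, TGACNNNGC, part of the antioxidant response element, was found for Slc38a2, Slc7a1, Slc7a6 and Slc6a9 among the 7 genes, in 6 of their 11 windows, and for 14.0% of all genes with a window and 12.4% of all windows; no window of the 7 genes held both cores, so their matches do not overlap. The Slc7a6 windows overlap each other and hold the same site, which is counted in each. Of the genes of the amino acid response list described below, 7 of the 28 with a window held TGATGNAA, and of the other amino acid transporters 1 of 44 did. A match describes letters in a window and not a bound site, and windows without a match leave introns and distant regions unread.

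The libraries held 11853738 to 12728853 counts in SKO and 14254224 to 15381473 in wild type, so that 3 counts corresponded to 0.247 to 0.289 CPM (a count relative to the scaled total of its library) in SKO libraries and 0.174 to 0.197 CPM in wild type libraries, after scaling by the trimmed mean of M-values (TMM). Srp68 averaged 8.51 ± 3.11 CPM in SKO and 24.5 ± 4.12 CPM in wild type (SD, n = 3 each; edgeR quasi-likelihood test, adjusted p = 0.00107). All 12 leptotene and zygotene markers were tested, 9 passed as higher and 1 as lower in SKO, and their summed level was 29600 to 38800 CPM in SKO and 17300 to 21500 CPM in wild type. Pachytene markers (7 tested, 0 higher, 5 lower) summed to 262 to 322 CPM in SKO and 342 to 454 CPM in wild type, and spermatogonial markers (10 tested, 0 higher, 2 lower) to 219 to 299 CPM in SKO and 370 to 403 CPM in wild type. Over all 13474 tested genes, 14.1% passed as higher and 14.4% as lower. These germ cell sums did not overlap between genotypes, so a difference in cell stage cannot be told apart from genotype in the transporter values. Sertoli cell markers (6 of 10 tested, 0 passed) summed to 40.8 to 179 CPM in SKO and 102 to 113 CPM in wild type. Macrophage markers (1 of 6 tested, Lyz2, higher) summed to 2.14 to 32.6 CPM in SKO and 1.8 to 2.77 CPM in wild type. Myoid markers (1 of 5 tested, Acta2, higher; Des at 0) summed to 4.61 to 13.3 CPM in SKO and 1.04 to 2.36 CPM in wild type. Leydig markers (1 of 6 tested, 0 passed) summed to 4.94 to 9.87 CPM in SKO and 0.58 to 6.6 CPM in wild type, with Cyp11a1 and Cyp17a1 at 0. Erythroid markers (4 of 6 tested, 0 passed; Alas2 at 0) ranged from 37.4 to 150 CPM in SKO and 2.77 to 137 CPM in wild type, and endothelial markers reached at most 1.89 CPM, with none tested. SKO replicate 3 had the highest Sertoli, macrophage and myoid sums of all 6 libraries. The part of these somatic cells in the transporter values was not tested. Values without SKO replicate 3 are given below.

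Slc3a2 (ENSMUSG00000010095, chromosome 19, 8706882 to 8723369, minus strand, GRCm38), the heavy chain that Slc7a11, Slc7a5 and Slc7a6 need to reach the cell surface, was the most abundant of the 10 transcripts per kilobase of exon in both genotypes. It had 309, 297 and 269 CPM in SKO replicates 1 to 3, and 128, 106 and 91.7 CPM in wild type replicates 1 to 3. Every SKO library was above every wild type library, with a 2.68-fold higher mean in SKO (291 ± 20.4 CPM in SKO and 109 ± 18.5 CPM in wild type, SD, n = 3 each). The log2 fold change, SKO over wild type, was 1.42 (SE 0.13). In these bulk libraries a change in the share of cells that hold a transcript and a change in the amount per cell cannot be told apart.

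Slc7a11 (ENSMUSG00000027737, chromosome 3, 49892526 to 50443614, minus strand), the light chain that takes up cystine in exchange for glutamate and so feeds glutathione synthesis, was well detected in SKO and nearly absent from wild type. It had 235, 368 and 149 counts in SKO libraries, against 3, 12 and 0 counts in wild type libraries. In CPM that was 19.3, 34.3 and 14.3 in SKO replicates 1 to 3, and 0.193, 0.695 and 0 in wild type replicates 1 to 3. The groups did not overlap, and the lowest SKO library stood far above the highest wild type library. The log2 fold change was 6.16 (SE 0.63). Its size depends on few wild type counts: 12 of the 15 came from wild type replicate 2, without which the value was 7.72.

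The light chains Slc7a5 and Slc7a6 showed no such difference. Slc7a5 (ENSMUSG00000040010, chromosome 8, 121881150 to 121907694, minus strand), which exchanges leucine and other large neutral amino acids, had 14.6, 8.75 and 8.56 CPM in SKO libraries and 7.99, 12.1 and 12.4 CPM in wild type libraries. The groups overlapped, with SKO replicate 1 the highest of the 6 libraries and wild type replicate 1 the lowest. Its log2 fold change was −0.02 (SE 0.31), and the sign of that value differed between processing alternatives, which ran from −0.33 to 0.56. Slc7a6 (ENSMUSG00000031904, chromosome 8, 106168857 to 106198706, plus strand), which exchanges cationic for neutral amino acids, had 75.1, 73.8 and 62.3 CPM in SKO libraries and 89.8, 81.4 and 78.3 CPM in wild type libraries. All SKO libraries were below all wild type libraries, by a small margin, with a log2 fold change of −0.24 (SE 0.13). It was below 0 in each of 16 alternatives, from −0.50 to −0.11. The value of −0.50 came with library totals.

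Slc7a3 (ENSMUSG00000031297, chromosome X, 101079210 to 101086020, minus strand) and Slc7a1 (ENSMUSG00000041313, chromosome 5, 148327410 to 148399904, minus strand) encode transporters of arginine, lysine and ornithine that work without a heavy chain. Slc7a3 had 597, 719 and 734 counts in SKO libraries, against 3, 45 and 12 counts in wild type libraries. In CPM that was 49.1, 66.9 and 70.6 in SKO and 0.193, 2.61 and 0.786 in wild type. The groups were far apart, with a log2 fold change of 5.65 (SE 0.48), which was 6.97 without wild type replicate 2, the source of 45 of the 60 wild type counts. Slc7a1 differed less, with 20.6, 20.8 and 25.7 CPM in SKO and 7.09, 6.72 and 9.76 CPM in wild type. Its groups did not overlap either, and its log2 fold change was 1.51 (SE 0.25). Slc7a3 lies on the X chromosome, the only one of the 10 that does, where 169 of 614 tested genes (27.5%) passed as higher in SKO and 23 as lower. Over all tested genes, 14.1% passed as higher and 14.4% as lower.

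Slc1a4 (ENSMUSG00000020142, chromosome 11, 20302180 to 20332713, minus strand) and Slc1a5 (ENSMUSG00000001918, chromosome 7, 16781340 to 16798274, plus strand) encode sodium-dependent exchangers of small neutral amino acids such as alanine, serine and, for Slc1a5, glutamine. Slc1a4 had 52, 90 and 57 counts in SKO libraries, against 5, 0 and 0 counts in wild type libraries. In CPM that was 4.28, 8.38 and 5.49 in SKO and 0.322, 0 and 0 in wild type. The groups did not overlap, and the log2 fold change was 5.73 (SE 0.91). All wild type counts came from wild type replicate 1, and without that library the fitted value, which then rests on a wild type level of 0 and is no bound, was 9.32. Slc1a5 was low in both genotypes, with 41, 10 and 21 counts in SKO and 13, 30 and 3 counts in wild type. The groups overlapped, and its log2 fold change of 1.18 had an SE of 0.86.

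Slc38a2 (ENSMUSG00000022462, chromosome 15, 96687392 to 96699730, minus strand), a sodium-coupled carrier of alanine, serine, glutamine and other neutral amino acids whose transcript is known to increase in mammalian cells deprived of amino acids, had 82.5, 87.9 and 73.7 CPM in SKO libraries. In wild type libraries it had 10.9, 15.7 and 13.6 CPM. The 2 sets of values were narrow and far apart, with a 6.07-fold higher mean in SKO and a log2 fold change of 2.6 (SE 0.18).

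Slc6a9 (ENSMUSG00000028542, chromosome 4, 117834506 to 117875198, plus strand), the glycine transporter GlyT1, had 0 counts in all 3 SKO libraries and 3, 5 and 7 counts in wild type replicates 1 to 3. Set against 3 counts over the SKO group (0.0901 CPM, a limit for counting error alone), the SKO level was at least 3.48-fold lower than the wild type mean of 0.314 ± 0.134 CPM (SD, n = 3). The gene was too low for the count filter and entered no fit. Of its exon length, 30.3% overlaps genes on the opposite strand, so its few counts are uncertain. None of the other 9 genes has an exon overlap with another gene.

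**Figure D1:**
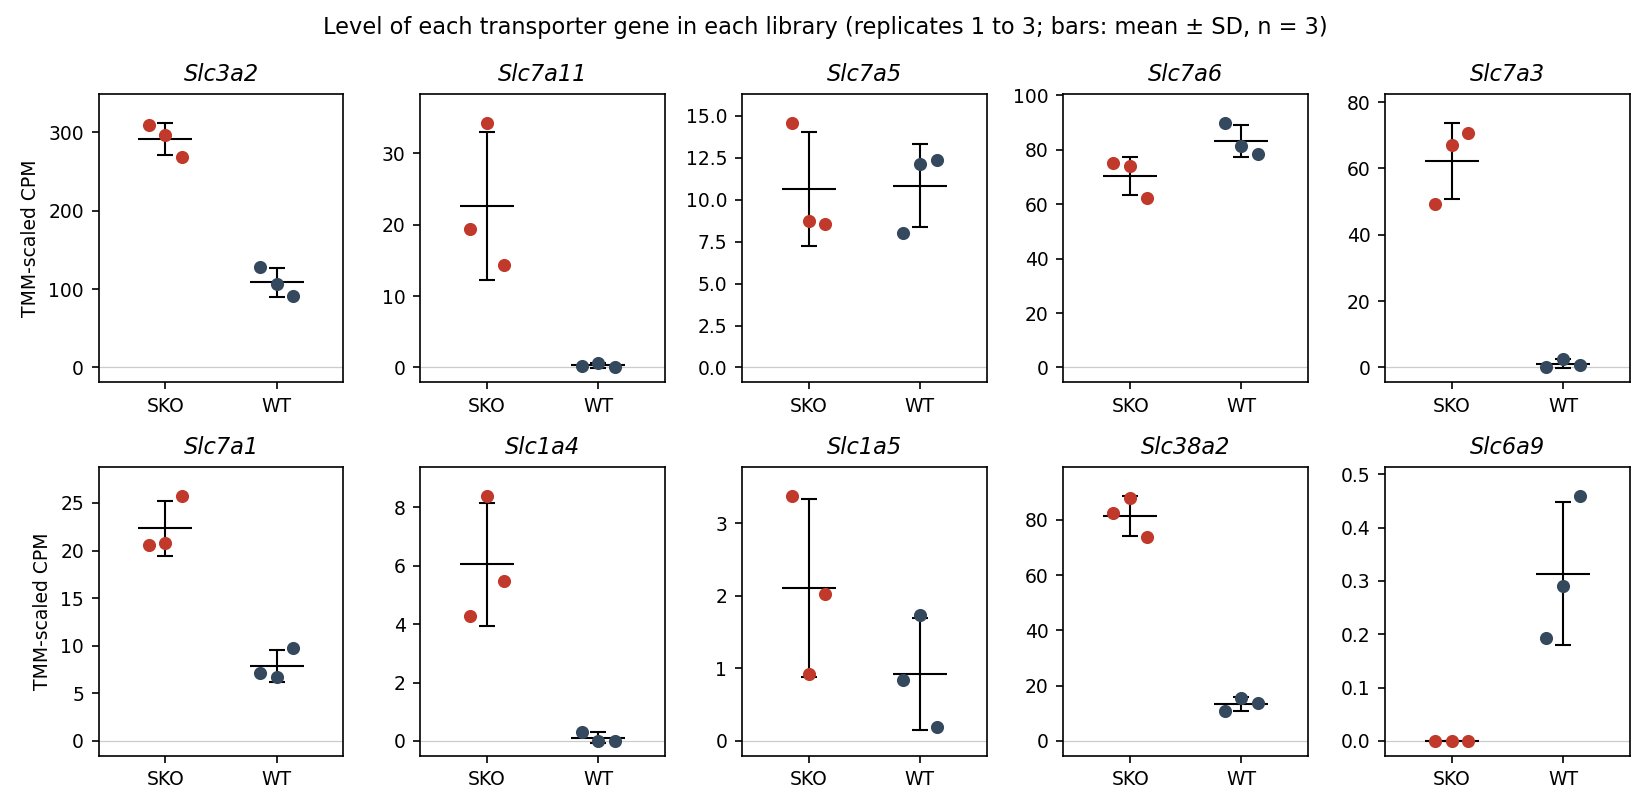
TMM-scaled CPM of each transporter gene (vertical axes, linear, each with its own range) in the 3 SKO and 3 wild type libraries (WT); points are replicates 1 to 3 from left to right, and bars are mean ± SD. The groups are separate with SKO above for Slc3a2, Slc7a11, Slc7a3, Slc7a1, Slc1a4 and Slc38a2, separate with SKO below for Slc7a6 and Slc6a9, and overlapping for Slc7a5 and Slc1a5.

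In the fit over 13474 genes, 9 of the 10 transporters were tested, of which 6 were called higher in SKO, 0 lower and 3 not called (edgeR quasi-likelihood, adjusted p under 0.05). Among all genes in the fit, 14.1% were called higher and 14.4% lower, 28.5% together. All SKO libraries lay above all wild type libraries for 21.6% of tested genes and below them for 22.2%. Since these genes were chosen with the same comparison known, nothing is read from their count.

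Replicate spread differed widely between the 10 genes. Within SKO, the coefficient of variation over 3 libraries was 7.01% for Slc3a2, 8.78% for Slc38a2, 10.0% for Slc7a6, 13.0% for Slc7a1 and 18.5% for Slc7a3. It was 32.1% for Slc7a5, 34.8% for Slc1a4, 45.7% for Slc7a11 and 58.1% for Slc1a5. The SKO libraries did not rank alike across genes: replicate 2 was the highest for Slc7a11, Slc1a4 and Slc38a2, replicate 1 for Slc3a2, Slc7a6, Slc7a5 and Slc1a5, and replicate 3 for Slc7a3 and Slc7a1. SKO replicate 3, with its higher somatic marker sums, was the lowest SKO library for Slc7a11, Slc3a2, Slc7a6, Slc7a5 and Slc38a2. Without it the log2 fold changes were 6.40 for Slc7a11, 5.80 for Slc1a4, 5.55 for Slc7a3, 2.66 for Slc38a2, 1.48 for Slc3a2 and 1.39 for Slc7a1. Over all alternatives, that fit among them, values ran from −0.33 to 0.56 for Slc7a5 and from −0.50 to −0.11 for Slc7a6. Those of Slc1a5 ran from 0.66 to 2.01.

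Per kilobase of exon, the order of the 10 transcripts differed between the genotypes. In SKO, Slc3a2 stood at 82.6 ± 5.79 CPM per kb, followed by Slc7a3 at 16.4 ± 3.04 and Slc7a6 at 15.4 ± 1.54 CPM per kb, whose libraries overlapped. Slc38a2 at 9.21 ± 0.809, Slc7a5 at 2.87 ± 0.92 and Slc7a1 at 1.94 ± 0.252 CPM per kb came next, each with a range below that of the gene before it. Slc7a11 (1.63 ± 0.744 CPM per kb) and Slc1a4 (1.54 ± 0.536 CPM per kb) overlapped their neighbours above, and Slc1a5 (0.505 ± 0.293 CPM per kb) lay under Slc1a4 in every library. In wild type, Slc3a2 at 30.8 ± 5.25 CPM per kb was followed by Slc7a6 at 18.2 ± 1.31, Slc7a5 at 2.92 ± 0.663, Slc38a2 at 1.52 ± 0.273 and Slc7a1 at 0.681 ± 0.144 CPM per kb, with no overlap between neighbours. Slc7a3 (0.316 ± 0.332 CPM per kb) overlapped Slc7a1, and Slc1a5, Slc6a9, Slc1a4 and Slc7a11 followed without clear separation. With the longest transcript in place of all exons as the length, Slc7a1 and Slc7a5 changed places in SKO, and Slc1a4 and Slc7a11 in wild type.

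Among 68 amino acid transporter genes, made up of these 10 and 58 others of the plasma membrane, lysosome and mitochondria, Slc7a3 ranked 2nd in level per kb in SKO and 24th in wild type. Against all tested genes, its level per kb stood at percentile 79.0 in SKO and 9.86 in wild type. Slc38a2 stood at percentile 70.2 in SKO and 34.3 in wild type, and Slc7a11 at percentile 38.3 in SKO and 0.126 in wild type. Slc7a3, Slc7a11 and Slc1a4 passed the count filter only through their SKO libraries. The low wild type percentiles of Slc7a3 and Slc7a11 among tested genes follow in part from that filter and are no separate result. Slc3a2 was high in both, at percentile 93.2 in SKO and 86.0 in wild type. The summed level of all 68 was 155 ± 8.53 CPM per kb in SKO and 82.9 ± 7.43 CPM per kb in wild type (SD, n = 3 each). The 10 described genes, which were chosen with this comparison known, held 85.5 ± 0.458% of that sum in SKO and 66.0 ± 0.945% in wild type. Slc3a2 alone held 53.4 ± 1.39% in SKO and 37.0 ± 2.99% in wild type, while Slc7a6 held 9.42 to 10.3% in SKO and 21.6 to 22.6% in wild type.

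**Figure D2:**
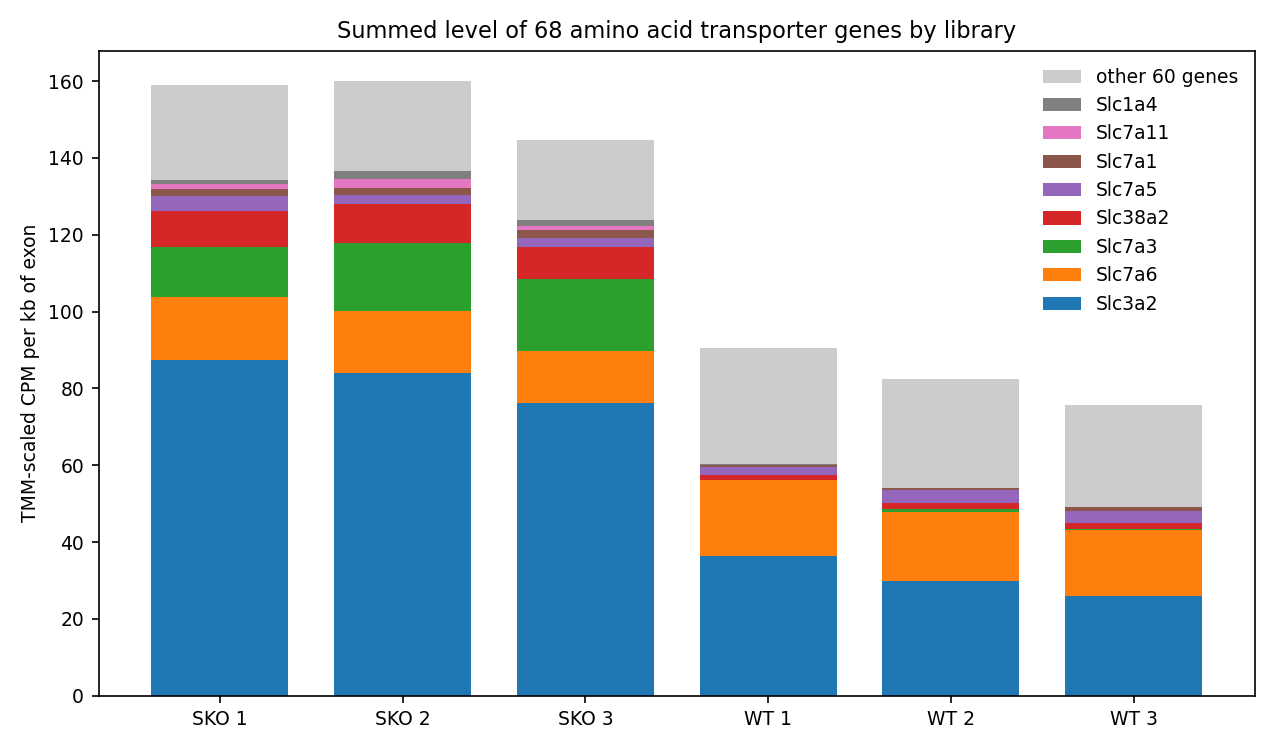
Summed TMM-scaled CPM per kb of exon (vertical axis, linear from 0) of 68 amino acid transporter genes in each library, SKO replicates 1 to 3 and then wild type replicates 1 to 3 (WT), with 8 genes coloured and the other 60 in light grey. The SKO columns reach 145 to 160 CPM per kb and the wild type columns 75.8 to 90.6, and the Slc3a2, Slc7a3 and Slc38a2 segments are taller in SKO.

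The heavy chain differed between genotypes more than its light chains did in sum. The summed level of the light chain genes that pair with Slc3a2 (Slc7a5, Slc7a6, Slc7a7, Slc7a8, Slc7a10 and Slc7a11) was 17.5 to 22.1 CPM per kb in SKO and 21.4 to 22.9 CPM per kb in wild type. Slc3a2 exceeded that sum 4.07 ± 0.254 times in SKO and 1.38 ± 0.192 times in wild type (SD, n = 3 each), with 3.89 to 4.36 times in SKO libraries and 1.21 to 1.59 times in wild type libraries. Within the light chains, Slc7a6 held 75.8 ± 2.0% in SKO and 82.0 ± 3.41% in wild type, and Slc7a11 held 7.87 ± 3.07% in SKO and 0.0952 ± 0.116% in wild type. Slc7a10 was at 0 in every library. Among the cationic transporters Slc7a1, Slc7a2 and Slc7a3, Slc7a3 held 86.6 to 90.3% of the summed level in SKO and 5.31 to 47.7% in wild type, where Slc7a1 held 40.4 to 72.4%.

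In the main fit, the other amino acid transporters had the same number of genes higher and lower. This list was chosen with earlier results of these data known, so its counts and p-values are given as a description. Of 58 listed genes, 23 were tested, 2 were higher, 2 lower and 19 did not pass, with a median log2 fold change of −0.65 against −0.03 over all tested genes, of which 14.1% were higher and 14.4% lower. With the filter of 5 CPM in 3 libraries, 9 were tested, 2 higher and 2 lower. Of all 8771 genes kept by that filter, 1923 were higher and 1981 lower. Ctns, the lysosomal exporter of cystine, rose (8.8 ± 2.19 CPM in SKO and 2.89 ± 0.749 CPM in wild type, SD, n = 3 each; edgeR adjusted p = 0.00601). Slc38a9, a lysosomal arginine sensor of the mTORC1 pathway, rose (49.2 ± 7.35 CPM in SKO and 33.1 ± 2.34 CPM in wild type; edgeR adjusted p = 0.0193). Slc25a38, the mitochondrial glycine carrier of haem synthesis, fell (5.16 ± 2.82 CPM in SKO and 17.7 ± 4.75 CPM in wild type; edgeR adjusted p = 0.0028). Slc25a13, a mitochondrial aspartate and glutamate carrier, fell (1.17 ± 0.207 CPM in SKO and 3.77 ± 1.04 CPM in wild type; edgeR adjusted p = 0.0354). The calls of Slc25a38 and Ctns held in all 16 alternatives, that of Slc38a9 in 10 of 16 and that of Slc25a13 in 4 of 15. Slc38a9 did not pass without SKO replicate 1, SKO replicate 2 or wild type replicate 2, and Slc25a13 did not pass in any of the 6 fits without 1 library. With a correction for GC content and length, the log2 fold change of Slc25a38 was −1.16 where it had been −1.76 and that of Slc38a9 was 0.24 where it had been 0.57, and with library totals 1 gene was higher and 4 lower. Fits without SKO replicate 1, SKO replicate 2 or wild type replicate 2 had 1 gene higher, and each of the 6 fits without 1 library had 1 gene lower.

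Of the 35 listed transporters that were too low to be tested, none exceeded 4.4 CPM in any library, and 6 (Slc7a10, Slc7a13, Slc38a3, Slc6a20a, Slc6a7 and Slc6a18) had no count in any library. The light chain Slc7a7 was tested and did not pass, with 0.869 ± 0.82 CPM in SKO and 2.08 ± 0.204 CPM in wild type (log2 fold change −1.26, SE 0.83). Slc7a8, another light chain, did not pass either, with 1.08 ± 0.532 CPM in SKO and 2.07 ± 0.327 CPM in wild type (log2 fold change −0.94, SE 0.72). For both light chains every SKO library lay below every wild type library, as for 22.2% of all tested genes.

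The amino acid response list, 30 genes of the ATF4 pathway and its targets outside the transporters, had more genes higher than lower. It was chosen with earlier results of these data known, so its counts and p-values are given as a description. Of 26 tested, 12 were higher, 2 lower and 12 did not pass, with a median log2 fold change of 0.44. Over all tested genes 14.1% were higher and 14.4% lower, and the median was −0.03. Asns, asparagine synthetase, rose (158 ± 24.8 CPM in SKO and 17.4 ± 5.78 CPM in wild type; edgeR adjusted p = 9.09e-07). Chac1 encodes an enzyme that breaks down glutathione. Its SKO libraries held 299 counts and its wild type libraries 0, at least 142-fold higher in SKO when 3 counts are assumed over the wild type group (edgeR adjusted p = 9.26e-06). Gpt2, the mitochondrial alanine aminotransferase, had 6.53 ± 2.23 CPM in SKO and 0.165 ± 0.143 CPM in wild type, and Cth, which makes cysteine from cystathionine, had 17.3 ± 1.87 CPM in SKO and 5.56 ± 1.05 CPM in wild type, and both passed (edgeR adjusted p = 0.000155 and 0.000514). Ddit3 (a transcription factor of the stress response), Mthfd2 (mitochondrial folate metabolism) and Psat1 (serine synthesis) also rose, with log2 fold changes of 1.62, 0.86 and 0.77. Of the exon length of Ddit3, 10.9% overlaps other genes. Genes of the list that did not pass had log2 fold changes of both signs. Named after their values were seen, Ppp1r15a stood at −0.83 and Trib3 at 0.44. Among the higher genes, Chac1, Gpt2 and, also named after its values were seen, Stc2 passed the count filter only through their SKO libraries. Their entry into the test and their calls as higher are therefore tied together.

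The 2 genes that fell were Phgdh, the first enzyme of serine synthesis (7.02 ± 1.34 CPM in SKO and 17.2 ± 1.06 CPM in wild type; edgeR adjusted p = 0.00216), and, named after its values were seen, Eif2ak1, an eIF2α kinase (17.0 CPM in SKO and 29.1 CPM in wild type on average). Phgdh did not pass after the correction for GC content and length (log2 fold change −0.56 in place of −1.29), which left 1 gene of the list lower. Atf4 itself, also named after its values were seen, had 85.2, 71.6 and 63.9 CPM in SKO and 44.8, 59.0 and 61.3 CPM in wild type, and did not pass, although the groups did not overlap (edgeR adjusted p = 0.0703). Without SKO replicate 1, 7 genes of the list were higher in place of 12.

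**Figure D3:**
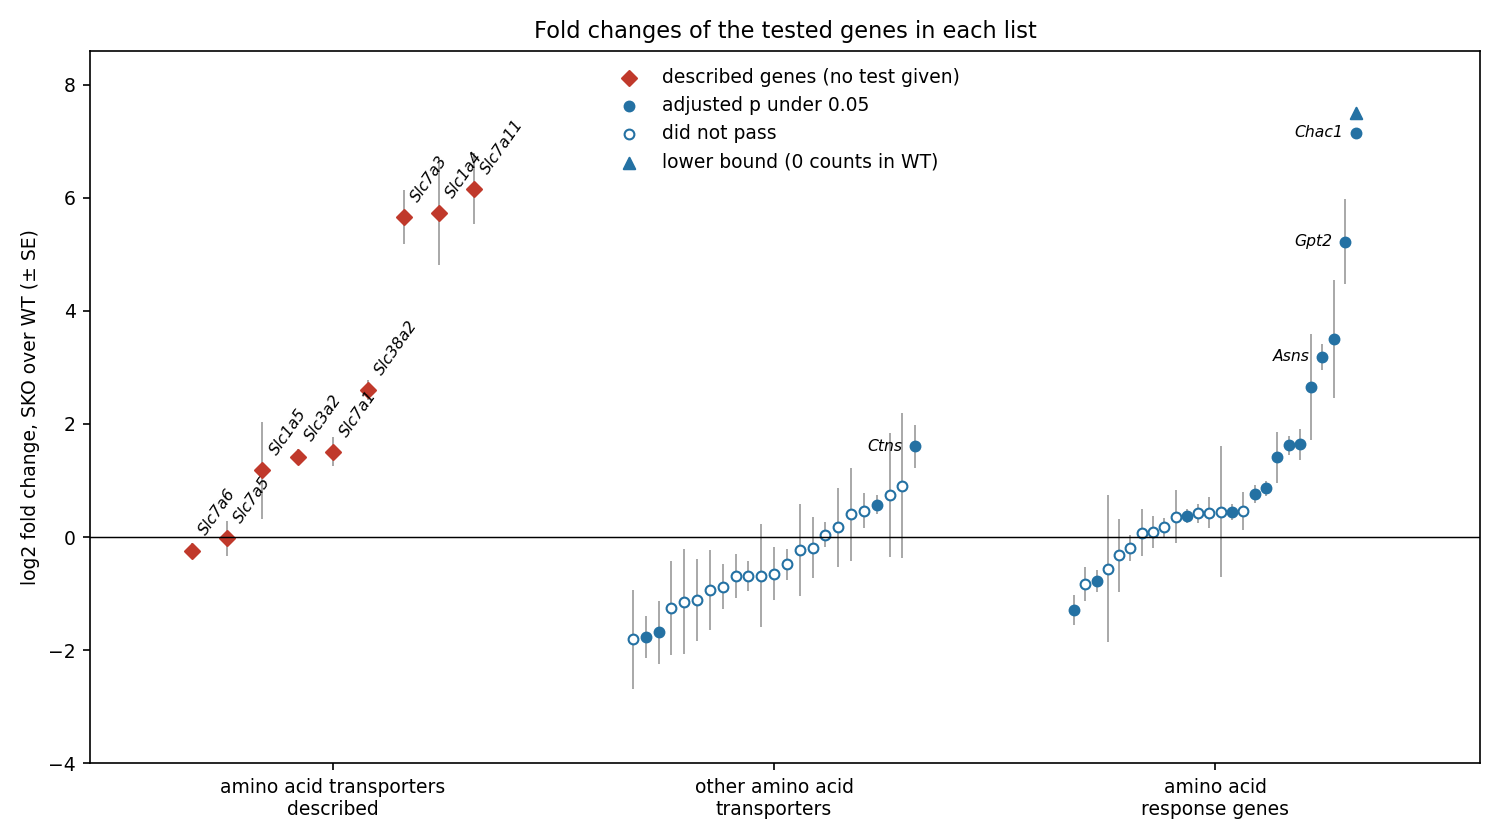
Log2 fold change, SKO over wild type (vertical axis), of the tested genes of 3 lists, each ordered from lowest to highest, with error bars of 1 SE. Filled circles passed at an adjusted p under 0.05 and open circles did not; the triangle marks the Chac1 value as a lower bound (0 counts in wild type), and the described transporters (diamonds, 9 of 10 fitted) run from −0.24 for Slc7a6 to 6.16 for Slc7a11.

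The other solute carriers, taken by symbol alone, included similar numbers of higher and lower genes. Of 294 protein-coding genes with a solute carrier symbol outside the lists above, 131 were tested, 11 were higher, 10 lower and 110 did not pass, with a median log2 fold change of 0.02, where 14.1% of all tested genes were higher and 14.4% lower. The carnitine transporter Slc22a5 (13.7 ± 1.99 CPM in SKO and 6.93 ± 0.707 CPM in wild type), the zinc importer Slc39a10 (27.5 ± 3.1 CPM in SKO and 14.0 ± 1.02 CPM in wild type), the Golgi nucleotide sugar transporter Slc35a3 (log2 fold change 0.84) and the phosphate transporter Slc20a1 (0.80) were the 4 named increases. Of the exon length of Slc20a1, 13.1% overlaps genes on the opposite strand. The mitochondrial carriers Slc25a1 for citrate (5.44 ± 1.64 CPM in SKO and 22.7 ± 6.35 CPM in wild type), Slc25a39 for glutathione (32.4 ± 7.13 CPM in SKO and 109 ± 9.02 CPM in wild type) and Slc25a11 for oxoglutarate (log2 fold change −1.12), and Slc35a4 (−1.12), were the 4 named decreases. With the correction for GC content and length, Slc25a1 stood at −1.27 where it had been −2.06, and Slc25a39 at −0.95 where it had been −1.75. Under that correction Slc25a11 (−0.58, edgeR adjusted p = 0.182) and Slc35a4 (−0.52, edgeR adjusted p = 0.295) no longer passed. Slc35a4 also did not pass without SKO replicate 3 or wild type replicate 1, nor Slc25a11 without wild type replicate 2. Slc22a5 did not pass with library totals or without SKO replicate 3, nor Slc20a1 with library totals. With library totals the list had 4 higher and 18 lower genes. It had 5 lower without SKO replicate 2, 6 lower without wild type replicate 2 and 7 higher without SKO replicate 3.

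The fold changes also depended on scaling and on corrections for sequence composition. Scaling by library totals alone, which moved the median log2 fold change of all genes from −0.03 to −0.29 and the split of all calls from 1901 higher and 1937 lower to 1010 higher and 3168 lower, put Slc3a2 at 1.16, Slc7a1 at 1.25, Slc38a2 at 2.34 and Slc7a6 at −0.50. With the correction for GC content and length, Slc3a2 stood at 1.90, Slc7a11 at 5.78, Slc7a3 at 5.89, Slc1a4 at 6.16, Slc1a5 at 1.79, Slc7a5 at 0.55 and Slc7a6 at −0.11. The GC content of the longest transcripts of the 10 genes ran from 40.7% for Slc7a11 to 57.0% for Slc6a9, against a median of 48.7% over all tested genes.

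**Figure D4:**
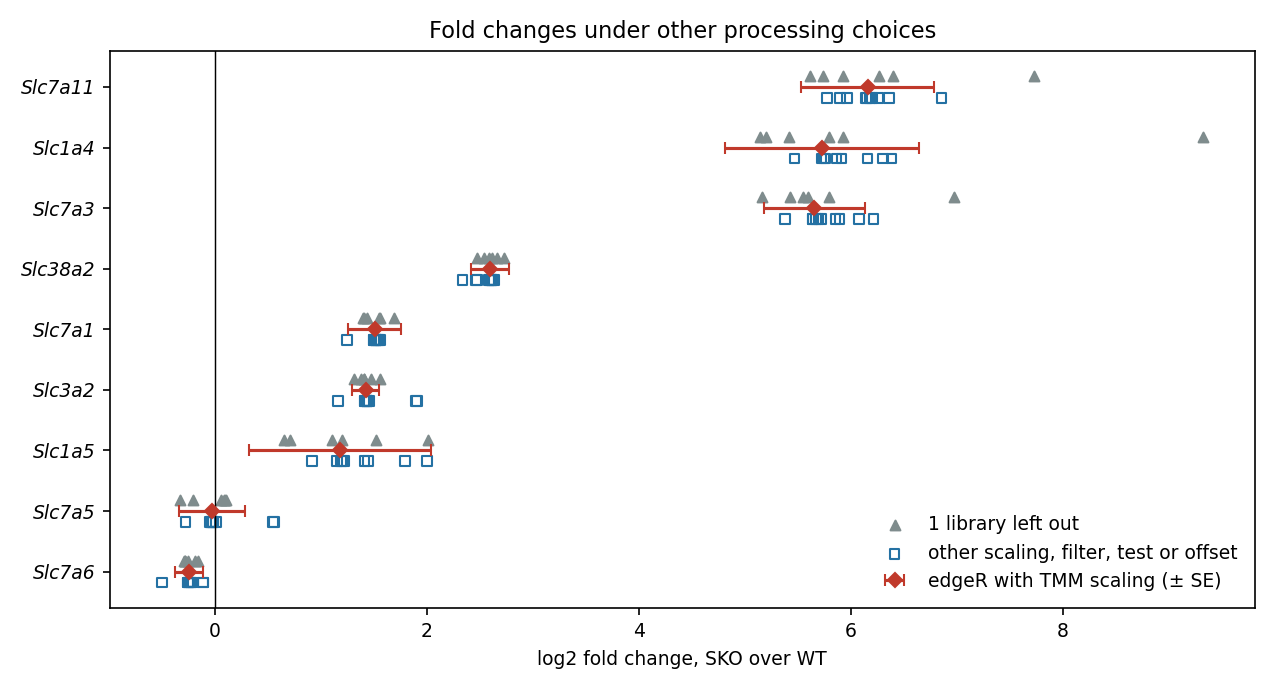
Log2 fold change, SKO over wild type (horizontal axis), of the 9 fitted transporters under edgeR with TMM scaling (diamonds, ± SE), under other scalings, filters, tests and offsets (open squares) and with 1 library left out (triangles). Values for Slc7a11, Slc1a4, Slc7a3, Slc38a2, Slc7a1, Slc3a2 and Slc1a5 stay above 0 and those for Slc7a6 below 0, while Slc7a5 values fall on both sides, and the outlying triangles of Slc7a11, Slc7a3 and Slc1a4 are the fits without the wild type library that holds most of their wild type counts.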

How the data were processed

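Per the labels, 3 Srp68 SKO and 3 wild type libraries were measured. The submitters' processing notes name FastQC, Trim Galore 0.6.4, HISAT2 2.0.5 and the builds GRCm38 and mm10; no source used here gives the counting tool, its strand setting or its annotation. The authors deposited raw counts of reads per gene, without normalization. Columns written CKO were taken as the SKO libraries, by genotype and replicate number. GENCODE vM21 (GRCm38) gave symbols, exon lengths and GC content for 49325 of 49584 identifiers.

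Counts were tested with edgeR 4.0.16 in R 4.3.3 (filterByExpr, TMM, glmQLFit and glmQLFTest, genotype as the only term, two-sided, Benjamini-Hochberg over 13474 genes, threshold 0.05). Values are TMM-scaled CPM, mean ± SD of 3 libraries; levels between genes are per kb of the union of exons. The members and lists were chosen with earlier results of these data known. Named genes were Srp68, the 10 transporters, called genes by smallest p (up to 12 other amino acid transporters, up to 8 response genes), and of other solute carriers up to 4 in each direction by largest fold change among called genes with separate groups and at least 5 CPM in the higher group.

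Alternatives tried were scaling by library totals, by upper quartiles or by DESeq2 size factors, no low-count filter, at least 5 CPM in 3 libraries, DESeq2 1.42.0, limma-voom (limma 3.58.1), a replicate block, a loess offset (span 0.3) on GC content and log exon length for the 99.8% of tested genes with both known, that offset with the block, and each library left out. No 2 libraries of a genotype were alike within sampling error: their chi-square over degrees of freedom was 12.0 to 22.2 (genes with 20 or more counts in sum). The reads have no molecular identifiers, so limits from 3 counts cover counting error alone. With the strand setting unknown, reads of overlapping genes may be mixed.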

Additional observations from a re-analysis of the deposited data

How the results depend on the processing

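Of 142 alternative values of the transporter fold changes, 122 moved by less than the spread between replicates and 20 by more. Values of Slc7a5 ran from −0.33 to 0.56, and no other fitted transporter had values on both sides of 0. The 29 lost calls among 334 values of the other named genes kept their direction. With library totals, 1010 genes were higher and 3168 lower, the other amino acid transporters had 1 higher and 4 lower, and the other solute carriers 4 higher and 18 lower. The other amino acid transporters had 1 lower in place of 2 with no low-count filter, with limma-voom and with the replicate block, and 1 higher with the GC content and length offset, with or without the replicate block. With that offset, with or without the block, 1 response gene was lower in place of 2. The replicate block otherwise kept every count within 1.5 times of its value. Correlations of the deviations of same-numbered libraries were 0.021, −0.05 and 0.039, so the numbers were not taken to pair samples.

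With 1 library left out, other amino acid transporters had 1 to 2 higher and 1 lower in each fit, response genes 7 to 10 higher and 2 to 3 lower, other solute carriers 7 to 14 higher and 5 to 12 lower, and all genes 1361 to 1916 higher and 1373 to 1851 lower. The causes of these differences were not tested, but each such fit has fewer samples. Slc1a4 and Slc1a5 were below the filter of 5 CPM in 3 libraries and have no value there. Depth limits Slc1a5, with 72 counts over SKO and 46 over wild type, and Slc6a9, with 0 and 15.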

Other observations

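Other solute carriers that the naming rule left out for their low level, and that are named after their values were seen, included Slc15a2, a carrier of di- and tripeptides. It had 4.0 CPM in SKO and 0.473 CPM in wild type on average, with all SKO libraries above all wild type libraries (log2 fold change 3.07; edgeR adjusted p = 0.031). Slc6a16, a member of the neurotransmitter transporter family with no known substrate, had 0.371 CPM in SKO and 3.38 CPM in wild type on average (log2 fold change −3.13; edgeR adjusted p = 0.0163).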
